A study of Mus musculus with 18 samples.

Results

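Alpha-ketoglutarate (AKG, also called 2-oxoglutarate) was added to endotoxin-tolerant mouse macrophages that were held without glutamine, and the 4 libraries of that condition were compared with the 4 libraries of tolerant macrophages without glutamine and without AKG. These are 8 of the 18 libraries in the series, and every gene of the deposited count table entered: 23052 gene symbols, of which 12492 had enough counts to be tested. All cells were bone marrow-derived macrophages of C57BL6/J wild type mice, grown for 7 days in 20% L929-conditioned medium and 80% DMEM. A further tolerant group of 4 libraries received glutamine, and 6 further libraries of a separate table hold macrophages left untreated, given LPS for 6 h or given IL-4 for 6 h, with 2 libraries each. The labels give neither the dose, the time and the chemical form of AKG nor the LPS schedule that made the cells tolerant, and they do not say whether replicates came from separate mice or cultures. The p-values therefore measure only the spread between these libraries, which may be technical. The series asks how glutamine metabolism shapes the transcriptome of tolerant macrophages. The comparison described here asks which of the transcripts of glutamine-starved tolerant cells differ once AKG is supplied.

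Endotoxin tolerance is the state of a macrophage that has met lipopolysaccharide (LPS) and then answers a repeated contact with less cytokine output. Glutamine is converted through glutamate to AKG, which feeds the tricarboxylic acid cycle and is also the co-substrate of a large class of dioxygenases, among them the Jumonji histone demethylases, the TET enzymes and the prolyl hydroxylases. Amino acid shortage is sensed in part through ATF4, a transcription factor that raises genes for amino acid synthesis, amino acid transport and tRNA charging.

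Each library held 28302158 to 33415950 counts without glutamine and 33584346 to 37834680 with AKG. Replicates 1 and 2 stood apart from replicates 3 and 4 whatever the treatment. Principal component 1, with 59.2% of the variance, separated them, and component 2, with 19.6%, separated the groups. What the replicate numbers mark is not stated in the labels. That difference was therefore a term of the fit, and values within replicates 1 and 2 and within replicates 3 and 4 are given beside the results. All 11 macrophage markers were tested and the libraries carried them at high levels, with summed levels of 37894 to 50936 CPM (counts scaled to the library total) without glutamine and 36380 to 54338 CPM with AKG. Of these markers 2 were higher with AKG: Fcgr1, the high-affinity IgG receptor, rose by 0.83 ± 0.09 (log2 fold change ± SE) and Itgam by 0.29 ± 0.07. Adgre1, which encodes F4/80, differed by 0.12 ± 0.08 with an adjusted p of 0.3495.

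With AKG, 2312 of the 12492 genes tested (18.5%) passed an adjusted p of 0.05 in edgeR's quasi-likelihood test with Benjamini-Hochberg adjustment. Of these, 1223 (9.79% of genes tested) were higher with AKG and 1089 (8.72%) were lower. These shares are the background for the list counts below. A change of over 1 on the log2 scale was seen in 229 of the genes that rose and 98 of those that fell. The direction was the same within replicates 1 and 2 and within replicates 3 and 4 for 1220 of the 1223 and for all 1089. These genes were called from the same libraries, which favours equal directions, so this is not a separate test. All 4 AKG libraries lay above all 4 glutamine-free libraries for 502 genes (4.02%) and below them for 635 (5.08%), together 9.1% of genes tested. Over all genes tested the median log2 change was 0.0047. Without the term for the replicate numbers the test called 186 genes, 80 higher and 106 lower, and replicates 3 and 4 alone gave 699. Without that term 15 members of the interferon list below remained called, and none of the ATF4, NRF2 or stromal lists. Glutamine-free replicates 3 and 4 differed from each other with a chi-square per degree of freedom of 73.2. For the other pairs, replicates 1 and 2 or 3 and 4 of a tolerant group, it was 7.68 to 20.1. The part of this difference in the 699 was not tested.

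**Figure D1:**
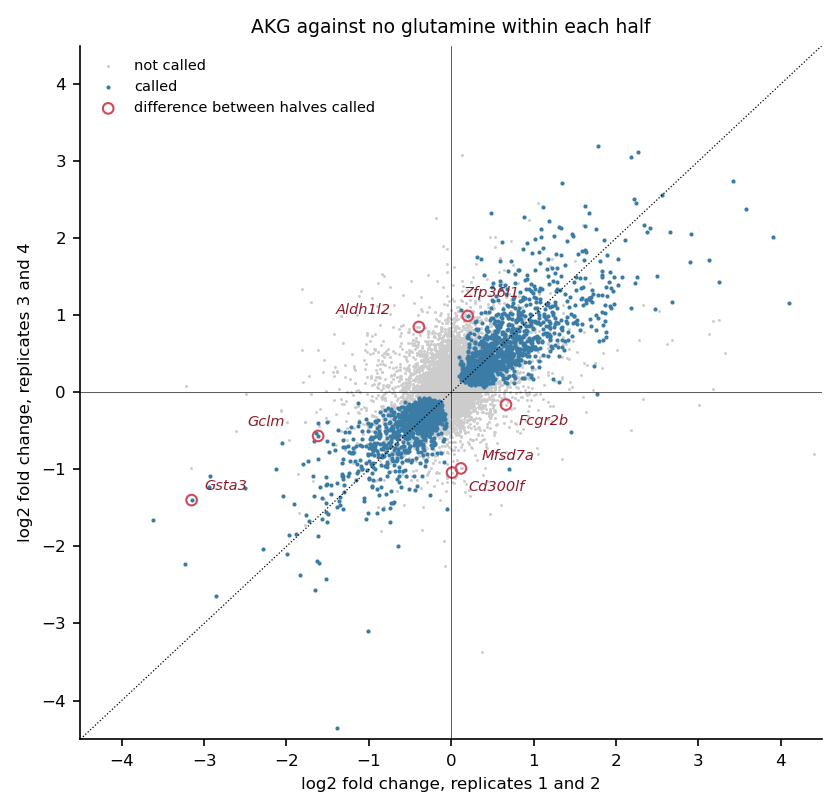
Log2 fold change of each tested gene with AKG against no glutamine, in replicates 1 and 2 (x axis) and in replicates 3 and 4 (y axis), with 2 libraries per group on each axis. Blue points are the 2312 genes called with all tolerant libraries, and 6 genes lie outside the axes, which end at 4.5. Circles mark the 7 genes whose change differed between the axes. The called genes lie in the 2 quadrants of equal sign with few exceptions, which calling from the same libraries favours.

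The gene lists were chosen with earlier results of these data known, which can favour uniform lists. Among them, interferon-stimulated genes formed the most uniform group. These genes are induced by type I interferon and encode antiviral effectors. Of 50 members tested, 48 rose with AKG and none fell, against 9.79% and 8.72% of all genes tested. For 39, against 4.02% of all genes tested, all AKG libraries lay above all libraries without glutamine. The median change of the list was 0.80 on the log2 scale (0.97 in replicates 1 and 2, 0.68 in replicates 3 and 4), against 0.0047 over all genes tested, and replicates 3 and 4 alone called 26 members. The summed level of the list was 9367 ± 1409 CPM (SD, n = 4) without glutamine and 16165 ± 3415 CPM with AKG. Irf9, a subunit of the interferon-activated transcription factor, differed by 0.20 ± 0.07 (adjusted p = 0.0674), and Gbp2 by 0.71 ± 0.30 (adjusted p = 0.139).

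Isg20, an antiviral exonuclease, had the smallest p of the list. It read 15.8, 12.6, 9.38 and 7.89 CPM in replicates 1 to 4 without glutamine and 32.8, 29.5, 17.3 and 19.02 CPM with AKG. Every AKG library exceeded every library without glutamine, and Isg20 rose 2.15-fold (log2 1.11 ± 0.09, adjusted p = 2.93e-05). Irf7, the transcription factor that amplifies type I interferon production, read 841, 745, 739.8 and 612 CPM without glutamine and 1436, 1491, 1075 and 1176 CPM with AKG, a 1.75-fold rise (adjusted p = 0.000105). Mx2, of a family of dynamin-like antiviral GTPases but annotated as a polymorphic pseudogene, read 16.5, 12.3, 9.97 and 11.6 CPM and then 34.3, 30.9, 21.5 and 19.2 CPM. The groups did not overlap for either gene.

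Several of the largest rises in the whole table were interferon-inducible genes that the list did not hold. Ifit1bl1, an Ifit family gene at chr19:34592891-34601956 (GRCm38, minus strand, protein coding), read 10.6, 7.098, 2.71 and 3.896 CPM without glutamine and 48.1, 43.6, 12.6 and 15.2 CPM with AKG. It rose 4.76-fold, log2 2.25 ± 0.21 (adjusted p = 0.000107), with no overlap of the groups. Iigp1, an immunity-related GTPase, read 17.9, 9.94, 1.44 and 4.61 CPM and then 71.4, 57.1, 19.4 and 14.6 CPM. Replicates 1 and 2 were higher than replicates 3 and 4 in both groups, so the groups overlapped over all 8 libraries but not within either pair of replicates. Iigp1 rose 5.12-fold, the membrane gene Ms4a4c 4.12-fold, and the PYHIN family genes Pydc3 and Pydc4 3.81-fold and 3.36-fold. Reads of Ifit, Pydc and Gbp family members that are near copies of each other cannot be assigned to 1 gene with certainty. The plot of levels by library shows Ifit1bl1, Isg20 and 14 other genes.

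**Figure D2:**
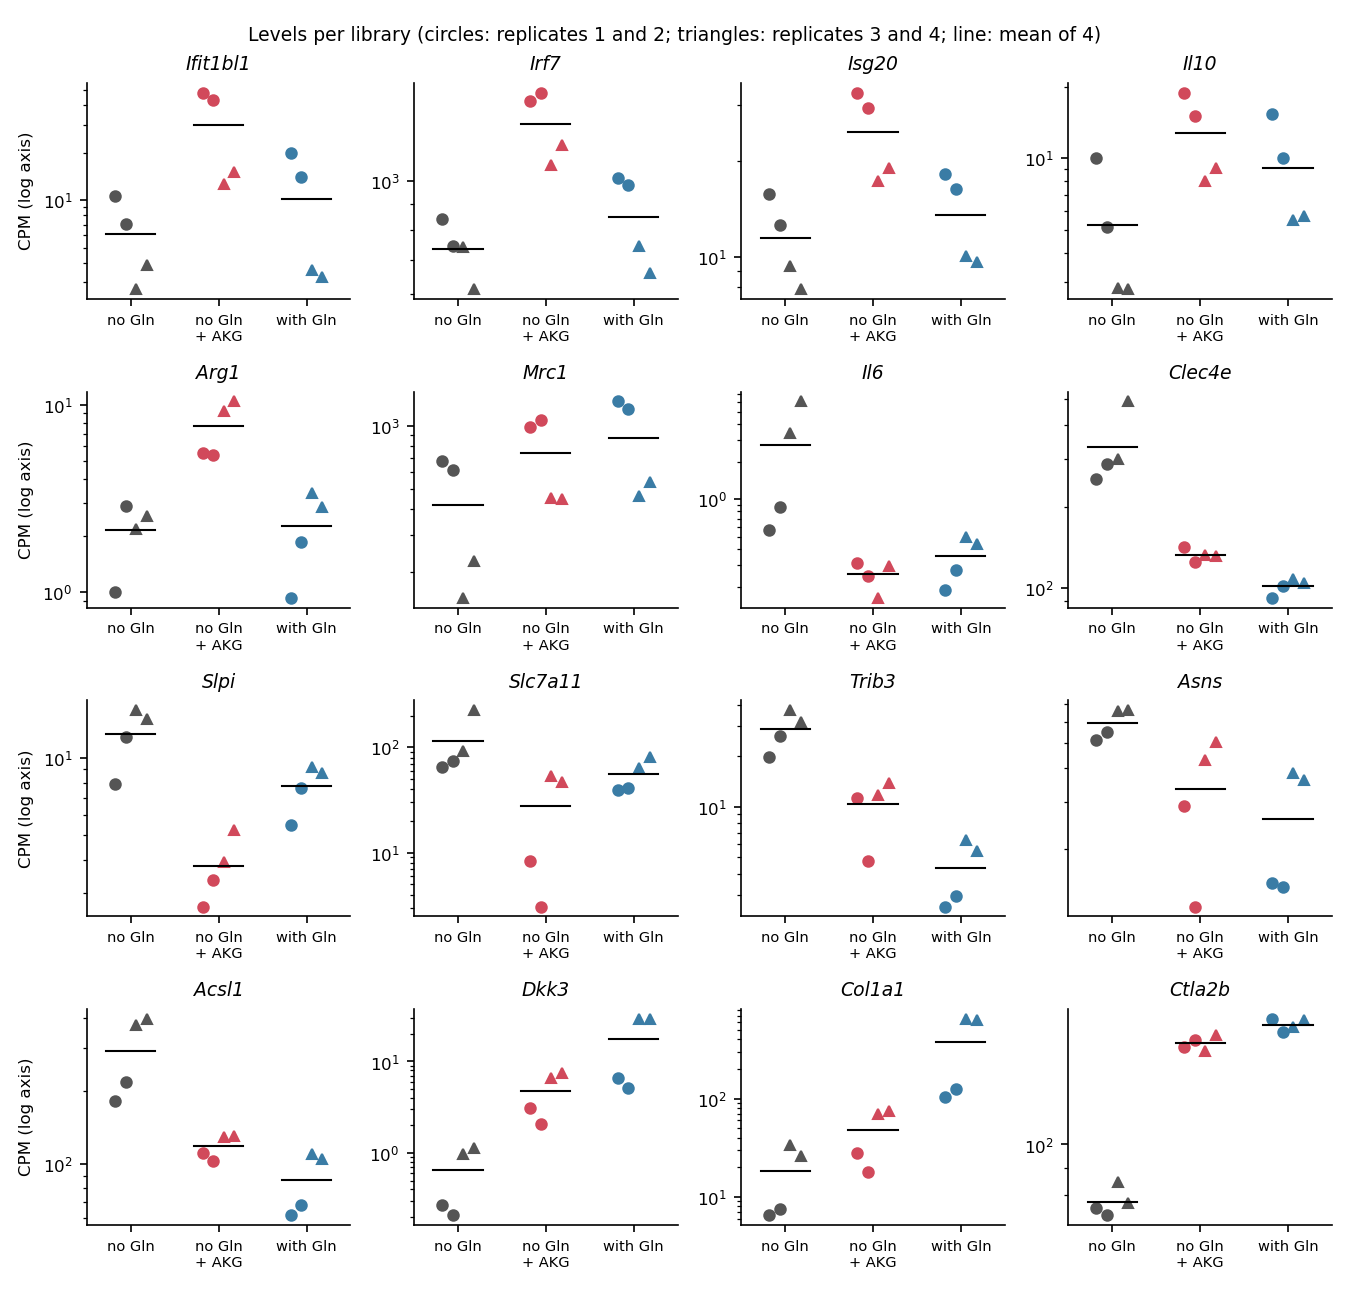
Level of 16 genes in each tolerant library, in CPM on a log axis, for no glutamine, AKG without glutamine and glutamine; symbols separate replicates 1 and 2 from replicates 3 and 4 and bars are group means. The AKG points of Isg20 and Ifit1bl1 all lie above those without glutamine, and those of Clec4e, Acsl1 and Slc7a11 all lie below.

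Many promoters of interferon-induced genes are known to carry the interferon-stimulated response element. From the interferon list 4 promoters are shown, because its rise was the most uniform among the lists chosen. The letters GAAA, any 2 bases and GAAA were searched on both strands in the 250 bases before each RefSeq start site (GRCm38.p6), where matches may overlap each other. They occurred in 2.98% of 32851 windows of that length and in 3.38% of the 9996 tested genes with a window. They occurred in 21 of the 38 interferon list genes with a window, in 8.22% of 937 genes that rose and in 2.16% of 879 genes that fell. A match describes letters and is not a measured binding site. In the stretches below, written 5′ to 3′ on the gene's strand, capitals mark 1 match each. Ifit1 (chr19:34640740-34640839, plus strand) has its match 94 bases before the start, Ifit3 (chr19:34583328-34583427, plus strand) 146, Isg15 (chr4:156200836-156200935, minus strand) 62 and Igtp (chr11:58199477-58199555, plus strand) 24.
Ifit1: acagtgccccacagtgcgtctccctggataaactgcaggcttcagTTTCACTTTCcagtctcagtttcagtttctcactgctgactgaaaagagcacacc
Ifit3: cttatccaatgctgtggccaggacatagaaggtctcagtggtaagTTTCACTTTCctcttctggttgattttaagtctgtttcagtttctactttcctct
Isg15: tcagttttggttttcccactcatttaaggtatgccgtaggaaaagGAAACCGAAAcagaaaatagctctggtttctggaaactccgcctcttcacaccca
Igtp: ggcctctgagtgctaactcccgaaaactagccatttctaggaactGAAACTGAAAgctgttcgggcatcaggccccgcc

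The 4 genes behind these stretches were chosen after their values were seen. Ifit1, an RNA-binding translation inhibitor, read 132, 86.97, 109 and 143 CPM without glutamine and 271, 255, 220.2 and 253 CPM with AKG. Igtp, a GTPase that acts on pathogen vacuoles, read 50.9, 39.2, 50.4 and 46.8 CPM and then 97.5, 88.3, 71.1 and 80.7 CPM. For both genes the groups did not overlap. The log2 changes were 1.07 ± 0.18 for Ifit1, 1.3 ± 0.18 for Ifit3, 1.06 ± 0.14 for Isg15, a ubiquitin-like modifier, and 0.83 ± 0.14 for Igtp. The Ifit3 stretch is letter for letter that of the neighbouring Ifit3b, and reads of these paralogs may be split between them.

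Glutamine itself did not move the interferon list to the same extent. Against the same libraries without glutamine, glutamine raised 5 of the 50 members (14.3% of all genes tested were higher with glutamine) and AKG 48, with medians of 0.24 and 0.80. Both comparisons use the same 4 glutamine-free libraries. The direct test of AKG against glutamine, added after these values were seen, called 33 of the 50 higher with AKG and none lower, with a median difference of 0.53. Over all genes this test called 309 (2.47%) higher with AKG and 824 (6.6%) lower. Without the term for the replicate numbers it called 0, with 916 genes at an unadjusted p under 0.05. Isg20 read 18.2, 16.3, 10.03 and 9.59 CPM in the 4 libraries with glutamine and differed from AKG by 0.87 ± 0.08 (log2, adjusted p = 7.28e-05). Ifit1bl1 read 19.99, 14.04, 3.59 and 3.22 CPM there and differed by 1.68 ± 0.20 (adjusted p = 0.000499).

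Cytokines and enzymes of the inflammatory response split in direction. Of 20 members tested, 6 fell with AKG (Il6, Cxcl3, Cxcl1, Il1a, Lif and Acod1) and 5 rose (Il10, Il18, Nos2, Il27 and Ccl5), with a median of -0.32. The shares of all genes tested were 8.72% lower and 9.79% higher. Il6, at chr5:30013114-30019981 (GRCm38, plus strand), had the largest fall. It read 0.569, 0.869, 3.43 and 6.08 CPM without glutamine and 0.309, 0.241, 0.162 and 0.2902 CPM with AKG, with no overlap and the widest gap in replicates 3 and 4. The log2 change was -3.24 ± 0.51 (adjusted p = 0.00154), with -1.39 in replicates 1 and 2 and -4.36 in replicates 3 and 4. Cxcl3, a neutrophil chemokine, read 7.73, 12.6, 18 and 20.3 CPM and then 3.67, 3.56, 5.85 and 6.91 CPM, with no overlap, and fell 2.93-fold (adjusted p = 0.00106).

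Il10, the cytokine that restrains macrophage activation, went the other way. It read 10.1, 5.15, 2.84 and 2.802 CPM without glutamine and 18.9, 15.03, 8.04 and 9.08 CPM with AKG, higher in each pair of replicates, and rose 2.56-fold (log2 1.36 ± 0.21, adjusted p = 0.001299). The other members that rose, all named after their values were seen, were Il18 by 0.48, Nos2 by 0.91, Il27 by 0.84 and Ccl5 by 0.47 on the log2 scale. With the replicate number as a block 3 of the 5 remained called, since Il27 had an adjusted p of 0.0507 and Ccl5 of 0.0797. Leaving out AKG replicate 1 or glutamine-free replicate 1 left 2 genes called higher, and leaving out AKG replicate 2 or 4 or glutamine-free replicate 2 or 4 left 3. Tnf differed by -0.41 ± 0.17 (adjusted p = 0.112) and Il1b by -0.73 ± 0.29 (adjusted p = 0.111), neither of which passed.

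The calls among genes of antimicrobial defence and pattern recognition went in 1 direction: 7 of 17 fell and none rose, with a median of -0.45. Of all genes tested 8.72% fell and 9.79% rose. The only positive change was that of Tlr4 (0.38 ± 0.23, adjusted p = 0.299). Slpi, a secreted protease inhibitor, read 7.93, 11.98, 15.3 and 14.1 CPM without glutamine and 2.65, 3.35, 3.95 and 5.25 CPM with AKG. F10, coagulation factor X, which the list also holds, read 14.2, 19.8, 21.6 and 22.1 CPM and then 4.35, 4.71, 8.01 and 7.89 CPM. Clec4e, the lectin receptor Mincle, read 253, 287, 299 and 489.7 CPM and then 143, 125, 132 and 132 CPM. In all 3 the AKG libraries lay below every glutamine-free library, with falls of 3.25-fold, 3.18-fold and 2.46-fold (adjusted p = 5.80e-05, 8.23e-05 and 0.000357). The count was 4 without AKG replicate 4 and without glutamine-free replicate 2, and 5 with the replicate block.

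Of 22 negative regulators of Toll-like receptor signalling tested, 1 rose and 4 fell, against 9.79% and 8.72% of all genes tested. Trafd1, a feedback inhibitor, rose by 0.52 ± 0.09 and Tollip, an adaptor that limits receptor signalling, fell by 0.35 on the log2 scale (adjusted p = 0.00256 and 0.00276). Cd274, the ligand PD-L1, differed by -0.45 ± 0.11 (adjusted p = 0.0143), and by an adjusted p of 0.0507 without AKG replicate 4. The number of members that fell was 1 or 2 without AKG replicate 2, 3 or 4 or without glutamine-free replicate 2, and 7 without AKG replicate 1, and the number that rose was 4 without glutamine-free replicate 3 and 2 with the replicate block.

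The untreated and LPS-stimulated libraries, which share no sample with the tolerant ones, show how these genes answer LPS in cells not labelled tolerant. After 6 h of LPS, 22.8% of 12506 genes tested there were higher and 29.3% lower. All 50 interferon list genes were higher with LPS, as were 19 of the 20 inflammatory and 14 of the 17 antimicrobial genes. Ifit1bl1 rose with LPS by 3.43 ± 0.18, Clec4e by 5.67 ± 0.12, Cxcl3 by 7.78 ± 0.24 and Slpi by 5.28 ± 0.24 on the log2 scale, whereas AKG moved Ifit1bl1 up and the other 3 down in tolerant cells.

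Of the genes that rose with AKG and were tested in both tables, 39.9% of 1195 were LPS-induced and 27.4% LPS-repressed. Of those that fell, 31.3% of 1080 were LPS-induced and 37.6% LPS-repressed. Over all 12128 genes tested in both tables the shares were 22.7% and 29.6%. Of all LPS-induced genes, 17.3% rose with AKG. The plot of AKG against LPS changes shows interferon genes in its upper right and Il6, Cxcl3, Clec4e and Slc7a11 in its lower right.

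**Figure D3:**
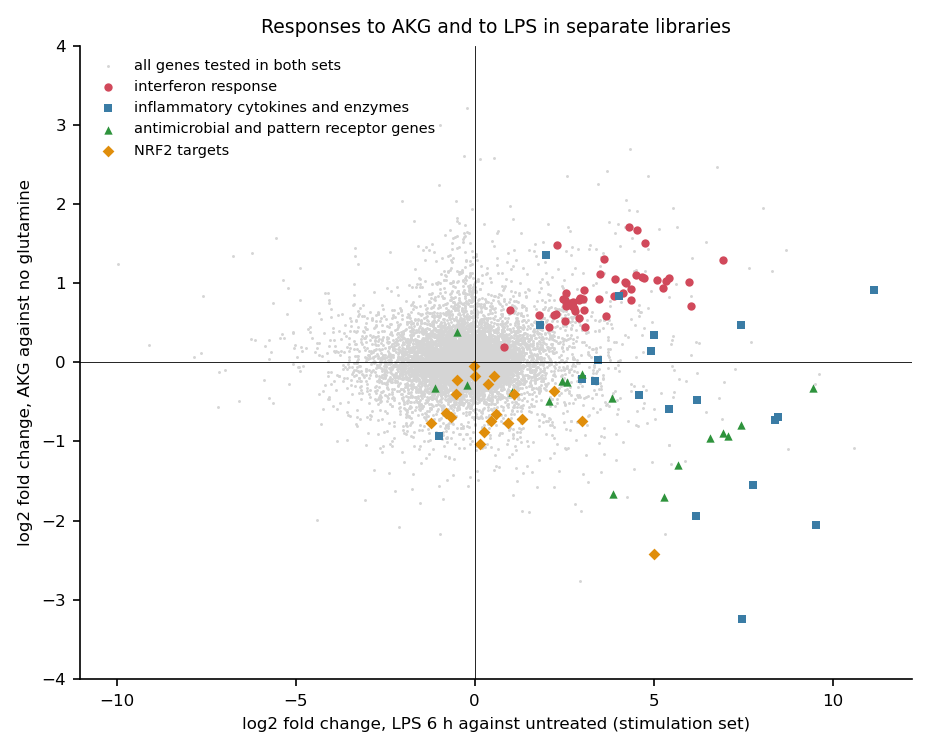
Log2 change with AKG in tolerant macrophages (y axis, 4 libraries against 4) against log2 change after 6 h of LPS in the stimulation libraries (x axis, 2 libraries against 2) for each gene tested in both tables, with 4 gene lists coloured. All 50 interferon genes lie at positive values on both axes, while the antimicrobial genes lie mostly below 0 on the y axis at positive values of the x axis.

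Genes of the IL-4 programme rose in part. In the stimulation libraries 6 h of IL-4 raised 9.66% and lowered 10.5% of the genes tested. Of 24 members, 16 had enough counts to be tested, and 6 of these rose and 1, the transcription factor Klf4, fell (-0.76 ± 0.18). With AKG 9.79% of all genes tested were higher and 8.72% lower. Arg1, arginase 1, at chr10:24915221-24927484 (GRCm38, minus strand), read 1.004, 2.88, 2.19 and 2.56 CPM without glutamine and 5.52, 5.403, 9.31 and 10.4 CPM with AKG. Its groups did not overlap, and it rose 3.41-fold (log2 1.77 ± 0.28, adjusted p = 0.00162). With glutamine Arg1 read 0.934, 1.85, 3.37 and 2.86 CPM, and AKG differed from glutamine by 1.78 ± 0.28 (adjusted p = 0.00212). In the other table, normalised separately, Arg1 averaged 2.73 CPM in untreated and 1117 CPM in IL-4-treated macrophages.

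Mrc1, the mannose receptor CD206, read 681, 610.5, 149.5 and 224 CPM without glutamine, 984, 1066, 452 and 447 CPM with AKG and 1307, 1198, 460.5 and 536 CPM with glutamine. It rose 1.95-fold with AKG (adjusted p = 0.00122), and the difference of AKG from glutamine was -0.21 ± 0.14 (adjusted p = 0.485). Clec10a, a galactose-type lectin receptor, rose 2.06-fold (adjusted p = 0.00269). Retnla and Chil3, the classic IL-4 markers Fizz1 and Ym1, were too low to test: Retnla had 0 counts without glutamine and 2 with AKG over 4 libraries, and Chil3 had 14 and 28. Of all genes that rose with AKG, 14.0% of 1195 were IL-4-induced and 19.1% IL-4-repressed, against 9.06% and 10.6% of the 12128 genes tested in both tables. The genes that fell with AKG had like shares, with 15.1% of 1080 IL-4-induced and 21.7% IL-4-repressed. The number of members called higher was 3 without AKG replicate 2, without AKG replicate 4, without glutamine-free replicate 2 and without glutamine-free replicate 4, and the number called lower was 0 without AKG replicate 2 and 2 without AKG replicate 1.

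Receptors that set where a macrophage goes and what it takes up also differed. Of 7 chemokine receptors tested, 4 rose and 1 fell, against 9.79% and 8.72% of all genes tested. Ccr2, the receptor of Ccl2 that marks inflammatory monocytes, read 24.2, 22.4, 2.19 and 4.44 CPM without glutamine and 44.8, 47.4, 12.9 and 10.1 CPM with AKG, higher within each pair of replicates. Ccr2 rose 2.501-fold, and Ccr1 fell 2.11-fold. For Ccr1 all AKG libraries, at 17.4, 19.3, 14.8 and 17.4 CPM, lay below the 31.5, 37.05, 33.5 and 43.6 CPM without glutamine (adjusted p = 0.000149), and without AKG replicate 1 a further receptor was called lower. The Ccr2 ligand gene Ccl12 rose 5.501-fold, from 5.66, 3.98, 0.229 and 0.0683 to 23.1, 23.1, 1.06 and 1.58 CPM, and was far lower in replicates 3 and 4 than in replicates 1 and 2 of both groups.

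Among 12 genes of the uptake of dying cells, 5 rose and none fell, against 9.79% and 8.72% of all genes tested. The 5 included both C1qa and C1qb, chains of the complement component that coats apoptotic cells. C1qa read 1493, 1475, 896 and 629 CPM without glutamine and 2428, 2393, 1409 and 1406 CPM with AKG, higher within each pair of replicates, a 1.73-fold rise (adjusted p = 0.000664). Axl, a receptor for apoptotic cells, rose 1.701-fold. Without glutamine-free replicate 3, 8 of the 12 were called.

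Of 14 eicosanoid genes, 4 rose and 2 fell, against 9.79% and 8.72% of all genes tested. Ptges, the inducible prostaglandin E synthase, fell 2.14-fold, from 10.98, 13.4, 23.9 and 25.6 to 6.23, 6.31, 9.69 and 11.5 CPM. Hpgd, which inactivates prostaglandins, rose 2.29-fold, from 6.73, 5.63, 4.87 and 6.29 to 11.8, 11.6, 16.6 and 14.1 CPM with no overlap. The prostaglandin E2 receptor Ptger2 fell 1.701-fold (adjusted p = 5.77e-05, 0.000288 and 0.000433). Without glutamine-free replicate 3, 4 members fell.

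In the antigen presentation list 4 of 11 genes rose and 1 fell, against 9.79% and 8.72% of all genes tested. The member that fell was the costimulatory gene Cd86, by 0.65 on the log2 scale (adjusted p = 0.00245). H2-Eb1, a class II chain, differed by 0.56 ± 0.12. Cd74, the invariant chain, differed by 0.41 ± 0.11 (adjusted p = 0.0225) and was not called without any 1 of 6 of the 8 libraries, namely AKG replicates 1, 2 and 4 and glutamine-free replicates 1, 2 and 4. The count of the list that rose was 1 in each of those 6 fits, 7 without glutamine-free replicate 3 and 2 with the replicate block. The count that fell was 2 without AKG replicate 1 or 2 or glutamine-free replicate 1.

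**Figure D4:**
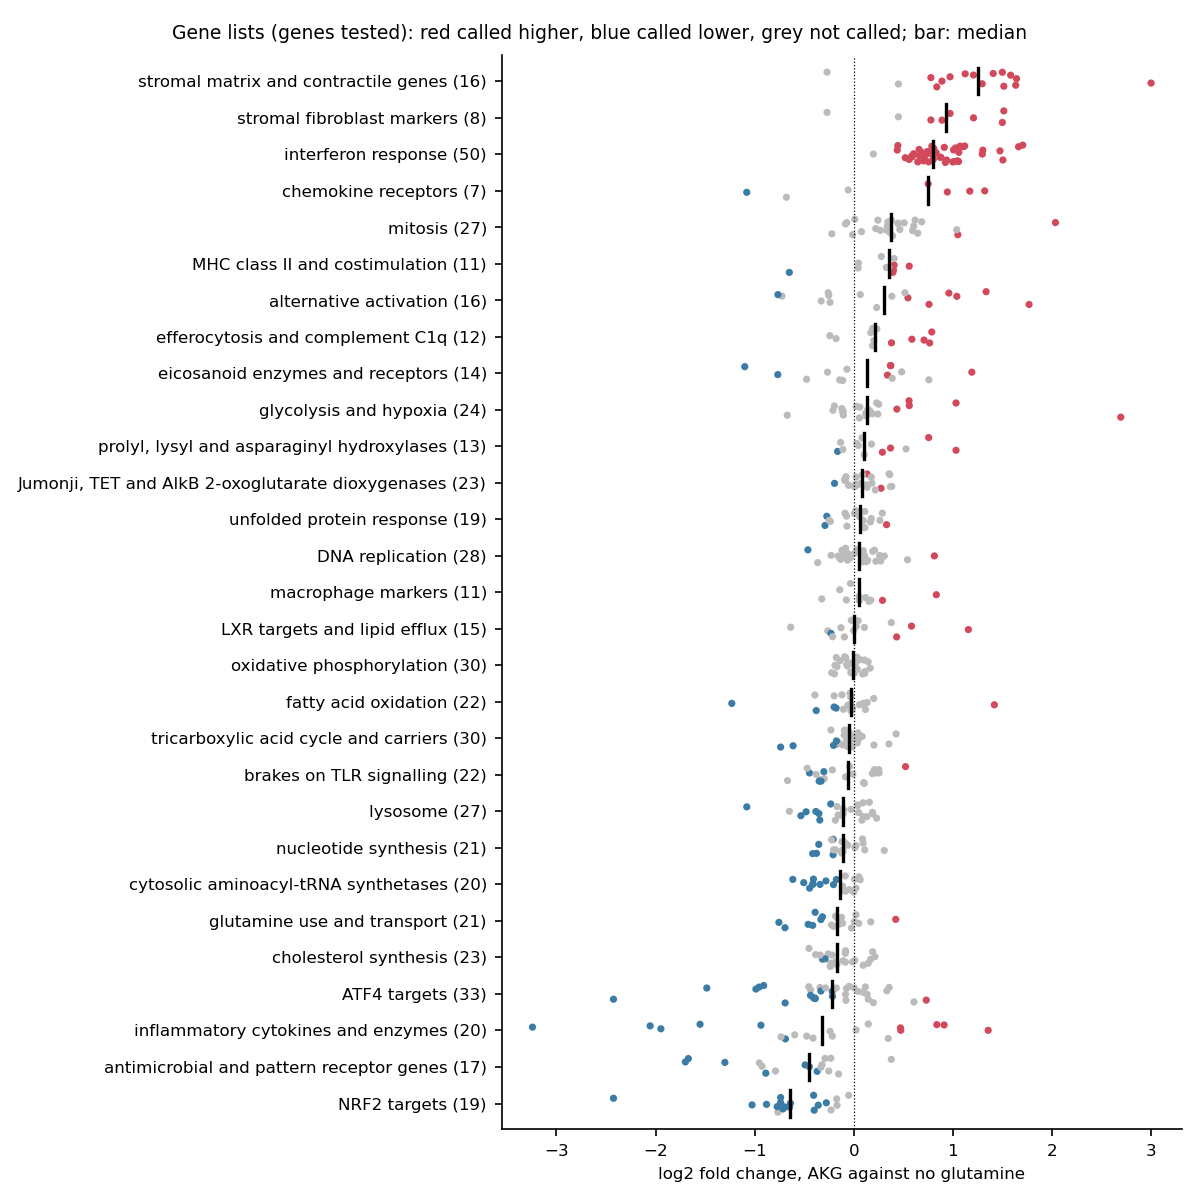
Log2 change with AKG of each tested member of the gene lists, 1 row per list, with a bar at the list's median; red members were called higher, blue lower and grey neither. The interferon row and, but for 1 member, the stromal row lie to the right of 0, and the NRF2 target row lies to its left.

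Genes that mark amino acid shortage fell in part. Of 33 ATF4 targets tested, 13 fell and 1 rose, against 8.72% and 9.79% of all genes tested. The median was -0.21 (-0.40 in replicates 1 and 2 and -0.0062 in replicates 3 and 4). Trib3, a pseudokinase that feeds back on ATF4, read 19.7, 26.1, 37.3 and 31.8 CPM without glutamine and 11.2, 4.74, 11.7 and 13.8 CPM with AKG. All AKG libraries were lower, and the fall was 2.79-fold (log2 -1.48 ± 0.22, adjusted p = 0.00144). Trib3 was lower still with glutamine, at 2.55, 2.94, 6.36 and 5.44 CPM, and AKG exceeded glutamine by 1.29 ± 0.24 (adjusted p = 0.00682).

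Atf4 itself read 230.4, 241, 337 and 307 CPM and then 188, 159, 244 and 265 CPM, a fall of 0.39 on the log2 scale (adjusted p = 0.00289). Asns, asparagine synthetase, which uses glutamine as its nitrogen donor, read 51.2, 54.8, 65.6 and 66.3 CPM without glutamine and 28.97, 12.1, 42.98 and 50.4 CPM with AKG. The groups did not overlap and the change was -0.96 ± 0.26 (adjusted p = 0.0306), a call that was lost without glutamine-free replicate 1 or 2 or without AKG replicate 3, where the adjusted p was 0.0646 to 0.0876. Vldlr, a lipoprotein receptor counted among ATF4 targets, was the member that rose (0.73 ± 0.13). Replicates 3 and 4 alone called 5 members lower.

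Slc7a11, the cystine importer xCT, had the largest fall of any gene in the table that met the rule for named genes. It spans chr3:49892526-50443614 (GRCm38, minus strand) and overlaps other annotated genes. It read 64.8, 74.9, 92.4 and 226 CPM without glutamine and 8.299, 3.08, 53.2 and 46.8 CPM with AKG, with no overlap. The fall was 5.37-fold (log2 -2.42 ± 0.50, adjusted p = 0.00741), at -3.62 in replicates 1 and 2 and -1.66 in replicates 3 and 4. With glutamine it read 39.6, 41.4, 63.4 and 80.8 CPM.

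Cytosolic aminoacyl-tRNA synthetases, which charge tRNAs, included 10 of 20 that fell and none that rose, with a median of -0.14. The shares of all genes tested were 8.72% and 9.79%. Aars, the alanine enzyme, read 198, 216, 308 and 273 CPM without glutamine and 144, 117, 191 and 200.1 CPM with AKG. It was lower in each pair of replicates and fell by 0.61 on the log2 scale (SE 0.08, adjusted p = 0.000403). Mars and Cars fell by 0.41 and 0.41. Replicates 3 and 4 alone called 1 member. Glutamine, compared with the same glutamine-free libraries, lowered 12 of these 20 and 15 of the 33 ATF4 targets (10.5% of all genes were lower with glutamine), and the median difference of AKG from glutamine was 0.026 over the synthetases and 0.055 over the ATF4 targets.

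Many ATF4 targets are known to carry its response element, and 3 promoter stretches are shown because Asns, Slc7a11 and Aars carry the falls described. The letters TGATGNAAN were searched as before. They occurred in 3.44% of all 32851 windows and 2.45% of tested genes with a window, in 8 of 29 ATF4 targets and 3 of 13 synthetases with a window, in 4.27% of genes that rose and 3.19% of genes that fell. Of the ATF4 targets with a match, Asns and Slc7a11 fell, Vldlr rose, and Atf3, Chac1, Nupr1, Pck2 and Pycr1 were not called. Of the synthetases with a match, Aars and Gars fell and Tars was not called. Capitals mark a match on either strand. The stretches are chr6:7693210-7693277 (minus strand) for Asns, chr3:50443626-50443724 (minus strand) for Slc7a11 and chr8:111033684-111033782 (plus strand) for Aars, with matches 14, 57 and 104 bases before the start.
Asns: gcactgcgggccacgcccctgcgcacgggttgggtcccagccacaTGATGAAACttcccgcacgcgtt
Slc7a11: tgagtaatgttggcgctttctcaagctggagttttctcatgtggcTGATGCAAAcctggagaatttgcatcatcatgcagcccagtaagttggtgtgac
Aars: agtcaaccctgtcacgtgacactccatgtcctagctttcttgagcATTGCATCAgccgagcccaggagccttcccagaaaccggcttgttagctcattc

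Slc7a11 is also a target of NRF2, the transcription factor of the antioxidant response, and most of the NRF2 list fell. Of 19 members, 14 fell and none rose, against 8.72% and 9.79% of all genes tested. The median was -0.65 (-0.87 in replicates 1 and 2 and -0.38 in replicates 3 and 4). All 19 had negative changes. Gsr, glutathione reductase, read 80.01, 94.5, 143 and 135 CPM without glutamine and 46.3, 46.1, 92.5 and 95.1 CPM with AKG. Txnrd1, thioredoxin reductase, read 165, 179.5, 358 and 322 CPM and then 98.6, 83.4, 235 and 237 CPM. Both were lower in each pair of replicates, while the levels of replicates 3 and 4 exceeded those of replicates 1 and 2 in either group.

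Gsr fell 1.67-fold, Txnrd1 1.64-fold and the autophagy receptor gene Sqstm1 1.57-fold (adjusted p = 0.0002702, 0.000726 and 0.0005099). Gclc, the catalytic subunit of the enzyme that starts glutathione synthesis, fell 1.62-fold. The glutathione S-transferase genes Gsta3 and Gstm1, outside the list, fell 3.43-fold and 1.76-fold, and the metallothionein gene Mt2 fell 2.44-fold, from 31.2, 34.02, 24.2 and 23.5 to 13.8, 11.2, 10.1 and 10.9 CPM with no overlap. Glutamine lowered 5 of the 19 NRF2 targets against the same libraries (10.5% of all genes tested). AKG was below glutamine for 3 and above it for none (6.6% and 2.47% of all genes tested). Replicates 3 and 4 alone called 8 members lower.

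Genes of glutamine handling showed smaller changes, with 1 of 21 higher and 7 lower, against 9.79% and 8.72% of all genes tested. Glul, glutamine synthetase, was the member that rose. It read 343, 349, 410.0 and 319 CPM without glutamine, 462, 495, 469 and 481 CPM with AKG and 534, 535, 524 and 531 CPM with glutamine, a 1.34-fold rise with AKG (adjusted p = 0.00168). Slc38a1, a glutamine transporter, fell by 0.46 on the log2 scale (adjusted p = 0.00124). Of 21 nucleotide synthesis genes 5 fell (8.72% of all genes tested), among them Cad, the first enzyme of pyrimidine synthesis, by 0.41 (adjusted p = 0.00383). The count was 3 without AKG replicate 2, AKG replicate 3 or glutamine-free replicate 2.

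Of 30 genes of the tricarboxylic acid cycle, where AKG enters, and of its carriers and linked enzymes, 4 fell and none rose. This compares with 8.72% and 9.79% of all genes tested, and the median was -0.052. The 4 were Me1, also in the NRF2 list, Pcx, Me2 and, of the cycle itself, Ogdh (-0.17 ± 0.05, adjusted p = 0.0386). Me1, cytosolic malic enzyme, read 7.46, 6.799, 29.7 and 27.9 CPM without glutamine and 3.21, 3.53, 19.5 and 21.03 CPM with AKG and fell 1.67-fold (adjusted p = 0.00129). Pcx, pyruvate carboxylase, fell 1.53-fold (adjusted p = 0.0106). Me2 had an adjusted p of 0.0258, which was 0.0503 with the replicate block. The block left 2 members called, and leaving out single libraries gave 2 to 7, with 2 for AKG replicates 2, 3 and 4 and glutamine-free replicates 1 and 2, and 7 for glutamine-free replicate 4. The changes of 30 oxidative phosphorylation genes ran from -0.22 to 0.17.

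Of the AKG-dependent dioxygenases that act on chromatin and RNA, 2 of 23 rose and 1 fell, which is no more than the 9.79% and 8.72% of all genes tested. Kdm2a differed by 0.14 ± 0.04, Kdm2b by 0.28 ± 0.08 and Phf2 by -0.19 ± 0.06. With the replicate block none was called (adjusted p = 0.0722, 0.0562 and 0.0523), and each lost its call in 4 to 7 of the 8 fits that left out 1 library. Kdm6b, the H3K27 demethylase of inflammatory macrophages, read 28.1, 39.1, 15 and 12.2 CPM without glutamine and 32.4, 32.1, 14.6 and 14.7 CPM with AKG, and differed by 0.02 ± 0.11 (adjusted p = 0.933). Its libraries overlapped. These values concern transcripts and not enzyme activity.

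Among 13 prolyl, lysyl and asparaginyl hydroxylases 4 rose and 1 fell, against 9.79% and 8.72% of all genes tested. P4ha1, a collagen prolyl hydroxylase, rose by 0.37 ± 0.08 with no overlap, from 124, 133, 124 and 108 to 158, 155, 157 and 164 CPM. Ogfod1 differed by -0.16 ± 0.05, with an adjusted p of 0.0662 under the replicate block. The count that rose was 1 or 2 without AKG replicate 2, 3 or 4 or without glutamine-free replicate 1, 2 or 4, and the count that fell was 0 in 7 of 8 such fits.

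Transcripts known to be raised by hypoxia-inducible factors rose in part: 5 of 24 genes of glycolysis and hypoxia rose and none fell. This compares with 9.79% and 8.72% of all genes tested. Of the 24 changes 17 were positive and 7 negative, among them Vegfa (-0.67 ± 0.23, adjusted p = 0.0737). Adm, adrenomedullin, a small vasoactive peptide at chr7:110627661-110629820 (GRCm38, plus strand), read 0.1004, 0.0898, 0.523 and 0.4101 CPM without glutamine, 1.14, 1.21, 2.22 and 2.64 CPM with AKG and 1.25, 1.15, 1.44 and 1.81 CPM with glutamine. It rose 6.48-fold (log2 2.7 ± 0.28, adjusted p = 0.000117) from a low level. Bnip3, a mitophagy receptor, read 37.6, 42.4, 32.7 and 33.5 CPM without glutamine, 50.9, 49.5, 57.9 and 57.99 CPM with AKG and 28.9, 33.7, 34.9 and 37.7 CPM with glutamine. Bnip3 rose 1.48-fold, with AKG above glutamine by 0.68 ± 0.10 (adjusted p = 0.00131).

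Pdk1, a kinase that inhibits pyruvate dehydrogenase, differed by 0.44 ± 0.11 (adjusted p = 0.0182, and 0.0549 without AKG replicate 4). Hif1a differed by -0.19 ± 0.20 (adjusted p = 0.562). The count of the list was 2 without AKG replicate 4 and 3 without AKG replicate 2 or 3 or without glutamine-free replicate 1 or 4. Against glutamine, 7 of the 24 were higher with AKG and none lower (2.47% and 6.6% of all genes tested).

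In the fatty acid oxidation list 1 of 22 rose and 4 fell, against 9.79% and 8.72% of all genes tested. Acsl1, which activates long-chain fatty acids, read 183, 218, 373 and 397 CPM without glutamine, 111, 103, 129.6 and 130.5 CPM with AKG and 61.9, 67.9, 110.2 and 105 CPM with glutamine. It fell 2.35-fold with no overlap (adjusted p = 9.18e-05). Pdk4, the kinase that shifts fuel use to fatty acids, rose 2.68-fold from a level under 1 CPM (adjusted p = 0.00162). Without AKG replicate 3 or 4, 2 of the 4 falls were called, and without glutamine-free replicate 3, 4 genes rose. Cholesterol synthesis genes, of which 2 of 23 fell (8.72% of all genes tested), among them Lss by 0.31, had medians of -0.36 in replicates 1 and 2 and 0.071 in replicates 3 and 4, and 5 and 4 fell without glutamine-free replicates 3 and 4.

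Of 15 genes of lipid efflux 3 rose and 1 fell, against 9.79% and 8.72% of all genes tested. Apoe, an apolipoprotein that macrophages secrete in quantity, read 5093, 5283, 3847 and 2792 CPM without glutamine and 6924, 7633, 4443 and 4186 CPM with AKG, higher within each pair of replicates, and rose 1.35-fold (adjusted p = 0.005699). Pltp, a phospholipid transfer protein, rose 1.498-fold. Mylip, a ligase that degrades the LDL receptor, differed by -0.23 ± 0.06 (adjusted p = 0.0217), a call lost without AKG replicate 1, 2 or 3 or glutamine-free replicate 1. In the lysosome list 7 of 27 fell and none rose, against 8.72% and 9.79% of all genes tested. Npc1, a cholesterol exporter, fell by 0.48 and the protease gene Ctsk by 1.08 on the log2 scale (adjusted p = 0.000326 and 0.000853). In the unfolded protein response list 1 of 19 rose, Pdia3 by 0.33, and 2 fell, Edem1 by 0.27 and Ern1 by 0.29. The counts of the unfolded protein response list are near the 9.79% and 8.72% of all genes tested.

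Collagen and contractile genes, products of stromal cells, rose together. Of 16 tested, 14 rose and none fell, against 9.79% and 8.72% of all genes tested. The median was 1.25 (1.5 in replicates 1 and 2 and 1.11 in replicates 3 and 4). Dkk3, a secreted Wnt modulator at chr7:112116017-112159057 (GRCm38, minus strand), read 0.268, 0.2096, 0.9802 and 1.13 CPM without glutamine, 3.09, 2.05, 6.604 and 7.49 CPM with AKG and 6.54, 5.07, 29.2 and 29.3 CPM with glutamine. It rose 8.01-fold with AKG (log2 3.0 ± 0.24, adjusted p = 4.16e-05). Col1a1, the main chain of type I collagen, read 6.53, 7.46, 33.8 and 26.4 CPM without glutamine, 28.3, 17.8, 70.2 and 74.9 CPM with AKG and 104, 125, 651 and 634 CPM with glutamine. Its level rose in 2 steps, with AKG between the other groups in each pair of replicates, and replicates 3 and 4 above replicates 1 and 2 in every group.

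Serpinh1, a collagen chaperone, and Col6a1 and Col6a3, chains of type VI collagen, rose 2.08-fold, 2.57-fold and 3.11-fold with AKG. The direct test put 15 of the 16 genes below glutamine (6.6% of all genes tested), with a median of -1.78. The 8 fibroblast markers tested all belong to these 16 genes, so their count is not separate evidence. Of the 8 markers 6 rose with AKG. Pdgfra differed by 0.45 ± 0.23 (adjusted p = 0.218), and Dcn had the opposite sign (-0.27 ± 0.20, adjusted p = 0.418). The summed level of the 8 was 40.1 to 165 CPM without glutamine, 81.6 to 296 CPM with AKG and 308 to 1639 CPM with glutamine. Lum, a further fibroblast marker, had 4, 3 and 25 counts over the 4 libraries of those groups. In bulk libraries fewer cells of a type and less RNA per cell cannot be told apart, and the part of stromal cells in these rises was not tested.

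Markers of other cells gave low levels. Of markers for other lineages 2 dendritic, 2 neutrophil, 2 mast cell and 3 endothelial markers had enough counts to be tested, and no lymphocyte or erythroid marker did. Hbb-bs of erythroid cells had 0 counts in all 8 libraries. The neutrophil marker S100a8 differed by -0.92 ± 0.26 (adjusted p = 0.0306) from 1.51, 1.68, 6.53 and 6.36 CPM to 1.11, 1.27, 2.25 and 3.27 CPM, a call lost without glutamine-free replicates 3 or 4 or AKG replicates 1, 2 or 3. The other neutrophil marker tested, S100a9, had the opposite sign (0.65 ± 0.36, adjusted p = 0.245). Xcr1, a dendritic marker under 1 CPM in every library, differed by 0.71 ± 0.25 (adjusted p = 0.0703, and 0.04901 with the replicate block). The other dendritic marker tested, Zbtb46, differed by -0.30 ± 0.29 (adjusted p = 0.532). Summed levels with AKG ran from 0.875 to 1.48 CPM for the dendritic, 1.6 to 3.56 CPM for the neutrophil and 19.5 to 42.7 CPM for the endothelial markers, against 0.629 to 1.31, 1.77 to 6.86 and 24.9 to 39.2 CPM without glutamine. The mast cell markers summed to 0.786 to 4.91 CPM without glutamine and 0.242 to 3.27 CPM with AKG. Their part in the results was not tested.

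Of 27 mitosis genes, 26 were higher with glutamine than without (14.3% of all genes tested). With AKG 2 of the 27 rose, near the 9.79% of all genes tested, and none fell, with a median of 0.38 against 1.53 for glutamine. The direct test put 20 of the 27 below glutamine and none above (6.6% and 2.47% of all genes tested). Fam72a, of this list, rose 2.07-fold with AKG (adjusted p = 0.000895). Cenpf, a kinetochore protein, read 0.234, 0.329, 0.0653 and 0.615 CPM without glutamine, 1.08, 0.755, 2.19 and 1.19 CPM with AKG and 3.24, 2.84, 4.78 and 11.5 CPM with glutamine. Its call (adjusted p = 0.0274) was lost without AKG replicate 1, 2 or 3 or without glutamine-free replicate 1, and the list's count was 1 without AKG replicate 1 or 2 or glutamine-free replicate 1. Of 28 DNA replication genes, only Mcm10 rose (0.81 ± 0.22, adjusted p = 0.0265) and only Cdt1, which licenses origins, fell, by 0.46 (adjusted p = 0.000379). Both counts are no more than the 9.79% and 8.72% of all genes tested. The Mcm10 call was lost in 5 of the 8 fits without 1 library, namely without AKG replicate 1, 2 or 4 or glutamine-free replicate 1 or 4, and the number of replication genes that fell was 2 without AKG replicate 1 and 3 without glutamine-free replicate 4.

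Several of the smallest p-values belonged to genes outside these lists. Ctla2b, a cathepsin inhibitor-like gene at chr13:60895350-60897447 (GRCm38, minus strand), read 75.6, 73.1, 84.8 and 77.3 CPM without glutamine and 154, 158, 151 and 162 CPM with AKG, at similar levels in all replicates of a group. It rose 2.02-fold (log2 1.01 ± 0.05, adjusted p = 5.31e-06) and 3 annotated genes overlap it on its strand, so its reads may be shared with them. Aif1, the macrophage actin-binding protein Iba1, read 111, 102, 71.9 and 59.8 CPM and then 210.2, 228, 138 and 143 CPM and rose 2.09-fold. Ly86, which encodes MD-1, the partner of the receptor RP105, rose 1.85-fold (adjusted p = 2.90e-05).

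Among falls, Osbpl3, an oxysterol-binding protein, read 47.5, 50.1, 81.8 and 92.5 CPM and then 25.7, 23.2, 39.7 and 40.9 CPM, a 2.08-fold fall (adjusted p = 1.23e-05). Pdpn, podoplanin, fell 2.66-fold, and Slc43a3, a purine nucleobase transporter, read 8.500, 12.7, 12.8 and 13.7 CPM and then 5.15, 1.63, 1.95 and 2.51 CPM, a 4.23-fold fall. Vwf, von Willebrand factor, and Cav1, caveolin, both known from endothelium, fell 3.02-fold and 3.19-fold, while the endothelial markers tested, Pecam1, Kdr and Cdh5, differed by 0.17 ± 0.30, -0.40 ± 0.28 and 0.51 ± 0.28 (adjusted p = 0.747, 0.383 and 0.252).

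The change with AKG was compared directly between replicates 1 and 2 and replicates 3 and 4 by an interaction term. This test called 7 genes (0.056% of those tested): Aldh1l2, Cd300lf, Fcgr2b, Gclm, Gsta3, Mfsd7a and Zfp36l1. Fcgr2b, the inhibitory IgG receptor, read 412, 410.4, 121 and 115 CPM without glutamine and 610.0, 693, 105 and 106 CPM with AKG, higher with AKG in replicates 1 and 2 and slightly lower in replicates 3 and 4. Aldh1l2, a mitochondrial folate enzyme and ATF4 target, read 3.48, 3.53, 12.5 and 14.1 CPM and then 2.78, 2.57, 24.2 and 23.5 CPM, lower with AKG in replicates 1 and 2 and higher in replicates 3 and 4. The count of this test is unstable: it was 0 without glutamine-free replicate 1 or 2 or without AKG replicate 2, 3 or 4, 42 and 1305 without glutamine-free replicates 3 and 4, and 46 without AKG replicate 1. At an unadjusted p under 0.05 the fits that called 0 had 593 to 860 genes, against 932 with all libraries.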

How the data were processed

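RNA-seq libraries were made with a stranded TruSeq kit, per the labels' protocols. Reads were aligned with STAR to mm10 and assigned with HTSeq, per the submitters' processing notes; versions and strand setting, not given in the sources used here, are unknown, so reads of overlapping or antisense genes may be shared. The deposited values are raw counts per gene symbol, made by the authors, with 28302158 to 37834680 counts per tolerant library.

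Counts of all 12 tolerant libraries were fitted with edgeR 4.0.16 (R 4.3.3, quasi-likelihood test, TMM scaling, filterByExpr filter) with group and replicates 1 and 2 against 3 and 4 as terms, and Benjamini-Hochberg adjustment over 12492 genes at 0.05. The biological coefficient of variation was 0.118. Levels are CPM on TMM-scaled library sizes. The same test was run on the 6 stimulation libraries, and the scripts were tested on simulated data. Alternatives were no term for the replicate numbers, the replicate number as a block, the 2 groups alone, each pair of replicates alone, RLE size factors, 2 other filters, DESeq2 1.42.0, limma-voom (limma 3.58.1) and each library left out. The AKG against glutamine contrast was chosen after seeing the data.

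Replicate numbers are shared between groups in the labels, which do not say what they mark. Same-numbered AKG and glutamine-free libraries deviated together from their group means (r of 0.795, 0.759, 0.501 and 0.740), but within replicates 1 and 2, and within 3 and 4, r was -0.0127 and -0.48.

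Named genes were the 10 largest rises and falls of called genes whose log2 CPM averaged 2 or more and whose groups did not overlap within either pair of replicates, the 5 smallest p in each direction, the 3 smallest p of each of 35 gene lists, 12 genes of prior interest and the 5 smallest interaction p, 131 genes in all. Others are Ifit1, Ifit3, Isg15, Igtp, Il18, Nos2, Il27, Ccl5, Cxcl1, Il1a, Lif, Acod1, Gclm, Adgre1, Itgam and further list members, named after their values were seen. The gene lists and the comparison were chosen with earlier results of these data known. Gene positions are from GENCODE vM21 and promoters from RefSeq (GRCm38.p6).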

Additional observations from a re-analysis of the deposited data

Results flagged for a closer look

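In 7 of 334 groups of 4 libraries 1 library lay apart, with a gap to its neighbour, as a share of the group's range, above Dixon's 95% critical value. Without glutamine this held for the summed level of tricarboxylic acid cycle and carrier genes (0.912 of the range), the summed lysosome genes (0.832), Slc43a3 (0.836) and Cd74 (0.831). With AKG it held for Vwf (0.840), for Kit (0.961) and for the summed mast cell and basophil markers (0.847). Slc43a3 read 8.500, 12.7, 12.8 and 13.7 CPM without glutamine, Vwf 37.2, 15.1, 15.3 and 17.4 CPM with AKG and Kit 3.05, 0.211, 0.189 and 0.211 CPM with AKG.

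For 7 genes the AKG effect differed between replicates 3 and 4 and replicates 1 and 2 by the interaction test. The effect in replicates 3 and 4 was higher by 1.75 on the log2 scale for the glutathione transferase gene Gsta3, 1.23 for Aldh1l2, 1.04 for Gclm, the regulatory subunit of glutathione synthesis, and 0.78 for Zfp36l1, an mRNA decay factor. It differed by -1.11 for Mfsd7a, -1.06 for Cd300lf and -0.83 for Fcgr2b. Gsta3 read 4.08, 4.64, 33.2 and 38.2 CPM without glutamine and 0.463, 0.513, 12.8 and 14.1 CPM with AKG.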

How the results depend on the processing

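Against 2312 genes called with AKG, 186 were called without the term for the replicate numbers (43.0% higher against 52.9%) and 699 with replicates 3 and 4 alone. The replicate block called 1917, RLE factors 2356, DESeq2 2604, limma-voom 2369 and the filters 2104 and 2307, and leaving out 1 library gave 1617 to 2826. The interaction count was 7, against 0 with the 2 groups alone (640 genes at an unadjusted p under 0.05), 3 with limma-voom and 0 to 1305 without 1 library. IL-4 called 2518 genes and 944 to 2751 without 1 library, LPS 6519 and 4574 to 6567. AKG against glutamine called 1133, 0 without the replicate term and 777 to 994 without 1 library. Where leaving out a library left 1 in an arm, it was assumed to vary like the other groups. Among named genes the block lost Me2, Phf2, Kdm2b, Kdm2a and Ogfod1, gained Xcr1 and changed no other call; 15 lost a call on leaving out 1 library. Signs turned for Kdm6b (-0.0129 without the replicate term, -0.0636 in replicates 1 and 2, -0.0655 to 0.13 without 1 library), and in replicates 1 and 2 alone for Cdh5 (-0.0325), Cd300lf (0.0097), Mfsd7a (0.12) and Aldh1l2 (-0.39). Fcgr2b turned in replicates 3 and 4 alone (-0.16). Without 1 library Zbtb46 ran from -0.55 to 0.00051 and Gata2 from -0.30 to 0.13. The cause of these changes was not tested. Genes under the count filter were not tested at this depth.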
